A study of Homo sapiens with 6 samples.

Results

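The 10 SOX genes of neural development, SOX1, SOX2, SOX3, SOX21, SOX4, SOX11, SOX5, SOX6, SOX9 and SOX10, were examined for peaks of the acetylated histone H3K27ac and of the DNA-binding protein CTCF in human neurons. They were chosen by name as members of SOX groups B1, B2, C, D and E, and make up 10 of the 19970 protein-coding genes on the 23 chromosomes examined, with all positions on GRCh38. Every listed peak that overlapped a gene interval, or that lay within 50 kb of it, was collected, which gave 163 of 78694 H3K27ac peaks and 52 of 43677 CTCF peaks. A peak sharing at least 1 bp with the gene interval is called a peak at the gene, and the others are called flanking peaks. The cells were neurons differentiated from NPCs of KOLF2.1J, a human line of induced pluripotent stem cells, and the labels name no genetic change and no treatment. Chromatin was fixed with 1% formaldehyde for 10 minutes, and libraries were amplified over 15 PCR cycles. The 6 libraries were 2 for CTCF, 2 for H3K27ac and 2 inputs, all from this 1 cell line. The deposited values were 1 peak list per antibody covering both replicates, so no spread between replicates and no read depth could be had, and each value below is the authors' value for a peak, without an SD. For the same reason no difference between genes was tested.

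SOX proteins bind DNA through a high-mobility-group box and bend it, and they act with partner factors such as POU and PAX proteins. Group B1 proteins keep neural progenitors undifferentiated, group B2 proteins oppose them, and group C proteins act in neurons that have begun to differentiate. Group D proteins carry no activation domain of their own and tune the action of other SOX proteins, and group E proteins act in glia and neural crest. H3K27ac accumulates on nucleosomes of active promoters and enhancers, and CTCF sits at many loop anchors and promoters. In bulk chromatin, a strong mark in few cells and a weak mark in many cells cannot be told apart.

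Promoter sequences were taken from the RefSeq table of GRCh38.p14, which matched 7 of the 10 genes. SOX9, SOX10 and SOX11 had no entry. The promoters of SOX2, SOX3, SOX5 and SOX6 are shown because they span the states described below. The SOX2 promoter (chr3:181711675-181711924, plus strand) spanned a break between 2 H3K27ac peaks. The SOX3 promoter (chrX:140505070-140505319, minus strand) lay under no H3K27ac peak, the SOX5 promoter (chr12:24562492-24562741, minus strand) lay inside a broad H3K27ac peak, and the SOX6 promoter (chr11:16738478-16738727, minus strand) was overlapped by a CTCF peak. Each line gives the 250 bases before the transcription start, 5′ to 3′. Capitals mark the letters ACAANG (the core of SOX binding sites) or AGNNGGC (part of the CTCF motif) on either strand.
SOX2: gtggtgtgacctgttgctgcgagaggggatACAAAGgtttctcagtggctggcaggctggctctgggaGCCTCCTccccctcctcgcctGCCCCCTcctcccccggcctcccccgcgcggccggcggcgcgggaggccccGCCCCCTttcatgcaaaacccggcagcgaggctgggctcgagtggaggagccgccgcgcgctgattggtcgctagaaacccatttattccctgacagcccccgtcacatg
SOX3: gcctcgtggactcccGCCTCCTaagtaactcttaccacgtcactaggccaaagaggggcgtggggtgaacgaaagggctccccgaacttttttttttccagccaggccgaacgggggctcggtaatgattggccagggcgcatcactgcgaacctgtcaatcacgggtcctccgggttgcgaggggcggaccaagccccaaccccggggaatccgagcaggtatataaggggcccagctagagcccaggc
SOX5: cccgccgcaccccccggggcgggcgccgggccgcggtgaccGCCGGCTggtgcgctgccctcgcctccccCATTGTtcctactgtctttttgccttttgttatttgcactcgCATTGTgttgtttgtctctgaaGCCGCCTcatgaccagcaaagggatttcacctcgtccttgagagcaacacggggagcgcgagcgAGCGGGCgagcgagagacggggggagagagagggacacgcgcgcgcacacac
SOX6: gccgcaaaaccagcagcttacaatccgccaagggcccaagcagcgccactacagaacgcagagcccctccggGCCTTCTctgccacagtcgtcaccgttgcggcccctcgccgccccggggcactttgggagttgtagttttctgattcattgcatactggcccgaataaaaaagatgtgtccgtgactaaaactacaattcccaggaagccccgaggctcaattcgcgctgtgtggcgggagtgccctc
For these 7 genes, the matches and the G and C content below were taken before the first start, the one furthest upstream. ACAANG was found before the first start of 2 of the 7 genes, SOX2 and SOX5, while 26.7% of the 22131 promoters searched held it. The SOX2 match began 220 bases before the start, and the SOX5 matches began 180 and 138 bases before it. AGNNGGC was found in 6 of the 7, all but SOX4, against 62.6% of all promoters. The POU octamer ATGCAAAT was found in none of the 7 (1.58% of all promoters). The E-box CAGCTG was present in SOX4 (13.7% of all promoters), the GC box GGGCGG in SOX2, SOX3, SOX5 and SOX6 (53.7%), and TATAAA in SOX21 (9.0%). SOX6 has later starts, which these counts leave out. There ACAANG also lay before the starts 336 and 382 kb into the gene, and TATAAA before those at 262, 330 and 382 kb. All motifs were searched on both strands. No ACAANG match overlapped an AGNNGGC match, and 1 AGNNGGC match, in SOX2, overlapped GGGCGG. A match is a run of letters and not a bound site. The share of G and C in these 250 bases was 82.0% in SOX1, 68.8% in SOX2, 65.6% in SOX5, 61.6% in SOX3, 58.8% in SOX6, 58.8% in SOX21 and 48.8% in SOX4, beside a median of 62.0% over the promoters searched.

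All 10 genes carried H3K27ac. A peak at the gene was present in 10 of 10, against 69.0% of all protein-coding genes. Because long genes collect more peaks, the 8 genes of up to 15 kb (8 of 8 with a peak) are better set beside the 49.0% of protein-coding genes of that length, and SOX5 and SOX6 (2 of 2) beside the 98.4% of genes over 500 kb. The highest fold enrichment at the gene was 47.6 at SOX21, 43.9 at SOX1, 37.6 at SOX11, 36.1 at SOX5, 29.3 at SOX2, 28.6 at SOX6, 28.0 at SOX4, 12.3 at SOX9, 9.95 at SOX3 and 5.83 at SOX10. The median over the 10 genes was 28.9, beside a median of 14.6 over the 13773 protein-coding genes with a peak. The value was above that median at 7 of the genes, and below it at SOX9, SOX3 and SOX10. Whether neighbours in this order differ could not be judged without replicate values.

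**Figure D1:**
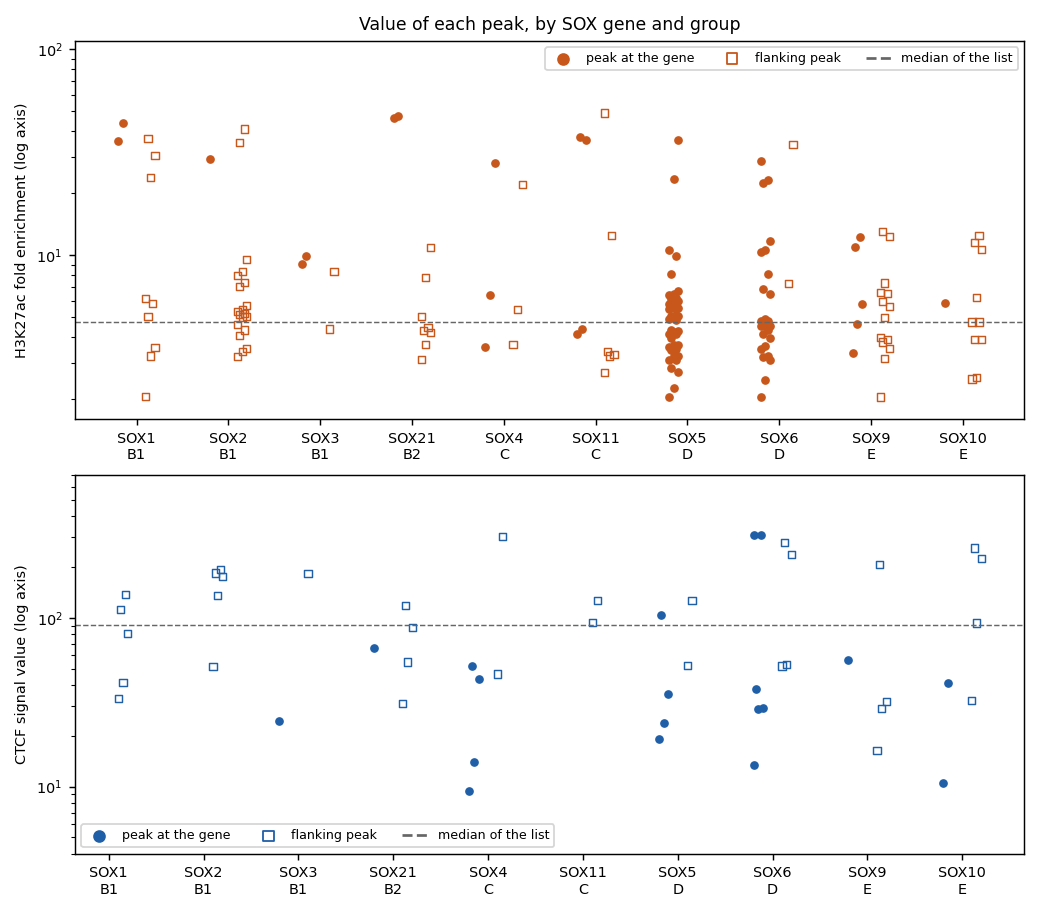
Fold enrichment of every H3K27ac peak (upper panel) and signal value of every CTCF peak (lower panel) at each of the 10 SOX genes (filled circles) or within 50 kb of it (open squares), on log axes, with the median of the whole list as a dashed line. SOX21 and SOX1 have the highest H3K27ac values at the gene (47.6 and 43.9) and SOX10 the lowest best value (5.83), and the CTCF peaks above the median of 91.0 are mostly flanking peaks.

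Broad H3K27ac intervals were frequent at these genes. A peak of at least 2 kb lay at 7 of the 10 (SOX1, SOX2, SOX21, SOX4, SOX11, SOX5 and SOX6), against 12.0% of all protein-coding genes. Among the shorter genes the count was 5 of 8, against 6.74% of protein-coding genes of up to 15 kb, and among the longer ones 2 of 2, against 35.4% of genes over 500 kb. The width of 2 kb was chosen after the peaks had been seen. SOX3, SOX9 and SOX10 had none. Such peaks were not particular to these genes. Of the lists described below, 6 of 8 neuron markers, 5 of 8 neural progenitor markers and 7 of 15 SOX partners and targets had one. Of the astrocyte markers 2 of 6 had one, and of the liver and muscle markers 1 of 6. The oligodendrocyte, neural crest and Schwann, and pluripotency lists each had 0. The whole SOX2 interval lay under H3K27ac. The share of the gene interval under H3K27ac was 96.6% for SOX1, 96.0% for SOX21, 90.9% for SOX4, 71.3% for SOX9, 59.5% for SOX11, 57.9% for SOX3 and 7.71% for SOX10. Most of the shorter genes were thus largely covered, whereas SOX10 was covered at one end. The SOX10 share still exceeded that of 66.4% of genes of up to 15 kb, whose median was 0.0%. SOX5 and SOX6, which are far longer, were covered over 2.26% and 1.93% of their intervals, beside a median of 0.781% for genes over 500 kb.

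**Figure D2:**
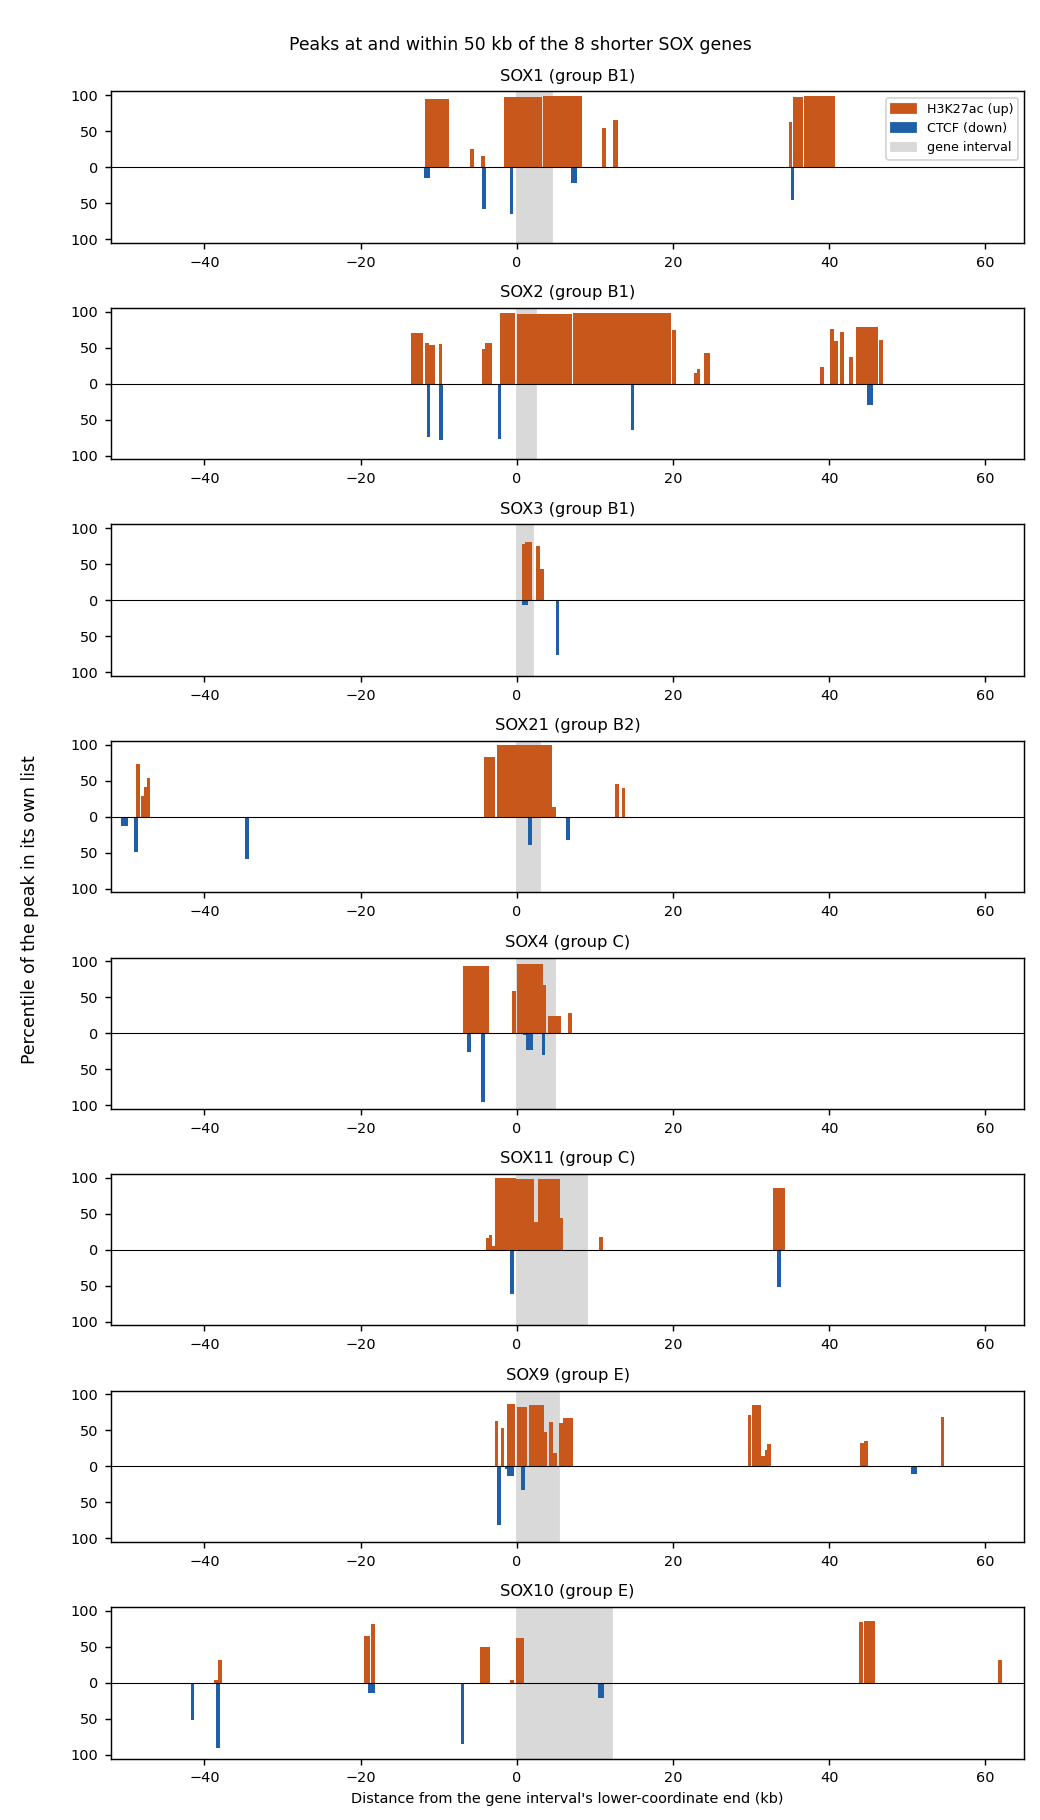
H3K27ac peaks (upward bars) and CTCF peaks (downward bars) at and within 50 kb of the 8 SOX genes of up to 15 kb, each panel plotted by distance in kb from the lower-coordinate end of the gene (grey). Bar height is the percentile of the peak's value in its own list, narrow peaks are drawn at a minimum width, and the broad blocks at SOX1, SOX2, SOX21, SOX4 and SOX11 contrast with the 4 narrow peaks at SOX3 and the scattered peaks around SOX10.

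Group B1 holds SOX1, SOX2 and SOX3, factors of neural progenitors. SOX1 (gene 6656, chromosome 13, 112067149 to 112071706) carried 2 peaks that together covered nearly the whole gene. The peak over its start (112065539 to 112070369) reached a fold enrichment of 36.0. The other (112070525 to 112075539) reached 43.9, and its summit lay beyond the gene. The 9 flanking peaks had fold enrichments from 2.06 to 37.0. The strongest flanking peak spanned 3970 bp from 112103991, 32.3 kb beyond the gene, and overlapped the long noncoding RNA genes SOX1-OT and LINC00404. A peak of fold enrichment 30.5 lay next to it. On the other side of the gene a peak of 3083 bp with a fold enrichment of 23.7 lay 8.66 kb away. Every H3K27ac peak in this window, including the 2 at the gene, overlapped SOX1-OT, so the list does not assign them to either gene. SOX1 was thus flanked by strong H3K27ac on both sides, and H3K27ac peaks in its window added up to 20.6 kb, more than in 98.9% of windows of genes up to 15 kb.

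SOX2 (gene 6657, chromosome 3, 181711925 to 181714436), a factor of pluripotent and neural stem cells, had 1 peak at the gene. It ran from 181711899 to 181719031, a width of 7133 bp, with a fold enrichment of 29.3. It began 26 bases before the start and went on past the other end of the gene. A flanking peak from 181709745 to 181711755 ended 170 bases before the start with a fold enrichment of 35.4, and another from 181719120 to 181731696 spanned 12577 bp with a fold enrichment of 41.0, the highest in the window. These 3 peaks followed each other with short breaks. All of them lie in the interval of SOX2-OT, the long noncoding RNA gene that contains SOX2, so the list does not assign them to either gene. Of the 20 flanking peaks, 8 were on the lower-coordinate side and 12 on the higher. A further group of 7 peaks lay 36.4 to 44.0 kb beyond the gene, of which the strongest, 2733 bp wide, had a fold enrichment of 9.5. The summed H3K27ac length of 31.6 kb was the greatest of the 10 genes and exceeded that of 99.9% of windows of genes up to 15 kb, whose median was 2.87 kb.

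SOX3 (gene 6658, chromosome X, 140502985 to 140505069), the X-linked member of the group, had few peaks. Its 2 peaks at the gene were listed from 140503711 to 140503963 (fold enrichment 9.02) and from 140504039 to 140504992 (9.95). The 2 flanking peaks on the upstream side had fold enrichments of 8.31 and 4.37. No other H3K27ac peak was listed within 50 kb, and the summed length was 1.88 kb, the smallest of the 10. The start itself fell in a break, 77 bases from the peak inside the gene and 419 bases from the peak upstream. Among the 7 genes with a tabulated start, SOX3 was the 1 whose start lay outside a peak with peaks within 500 bp on both sides, a state found at 15.5% of protein-coding genes with a promoter entry.

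Group B2 was represented by SOX21 (gene 11166, chromosome 13, 94709622 to 94712545), which counteracts SOX1 to SOX3 proteins during neurogenesis. It had the highest fold enrichment among peaks overlapping the 10 genes, in 2 peaks, but with the genes extended by 2 kb SOX11 was higher (49.1 against 47.6). The peak reaching from 94707040 to 94709720 was at percentile 99.2 of the list, with a fold enrichment of 47.6. It shared 99 bp with the end of the gene with its summit outside, and also overlapped the neighbouring noncoding gene LINC00391. The peak at 94709837 to 94714120 (fold enrichment 46.5) covered the start of SOX21 and also SOX21-AS1, the noncoding gene on the upstream side. Of the pair, the peak of 46.5 thus holds most of the gene. The 8 flanking peaks had fold enrichments from 3.11 to 10.9. A cluster of 4 lay 47.0 to 48.3 kb away on the downstream side.

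Group C holds SOX4 and SOX11, factors of newly formed neurons that switch on neuronal genes. SOX11 (gene 6664, chromosome 2, 5692384 to 5701385) had 4 peaks at the gene, 2 of them strong: 37.6 from 5692352 to 5694576 and 36.2 from 5695048 to 5697933. The remaining 2, 124 and 157 bp wide, had fold enrichments of 4.37 and 4.14. The highest value of the whole set of 163 peaks, 49.1, belonged to a flanking peak from 5689562 to 5692239, which ended 145 bases from the lower-coordinate end of the gene and overlaps the noncoding gene LINC01248. A flanking peak of fold enrichment 12.5 lay 23.8 kb beyond the other end. SOX4 (gene 6659, chromosome 6, 21593751 to 21598619) had 3 peaks at the gene. The strongest (21593724 to 21597133) reached a fold enrichment of 28.0, and the 2 others 6.4 and 3.57. A flanking peak of 3418 bp from 21586814, 3.52 kb upstream, had a fold enrichment of 22.0, and no H3K27ac peak was listed elsewhere in the window except for 2 within 1.9 kb of the gene, with fold enrichments of 5.45 and 3.68. In both genes the strong signal was thus close to the gene.

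At SOX2, SOX4 and SOX6 the start lay in an H3K27ac peak and another peak lay within 500 bp upstream. This was so at 3 of the 7 genes with a tabulated start, against 17.0% of 15811 protein-coding genes, and the definition was chosen after the peaks had been seen. The peak over the gene began 26 bases before the start in SOX2 and 27 in SOX4, and the neighbouring peak ended 170 and 268 bases before it. At SOX6 the peak over the start reached 26 bases upstream of it and the next began at 111 bases, and at SOX11 and SOX9, which have no tabulated start, the peaks outside the lower-coordinate end stopped 145 and 248 bases short of it. SOX1, SOX21 and SOX5 had no such break, and their starts lay inside wide peaks. A promoter window, here 250 bases before to 50 after the start, met an H3K27ac peak in 6 of the 7 genes in the table, all but SOX3, against 61.3% of the same protein-coding genes.

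**Figure D3:**
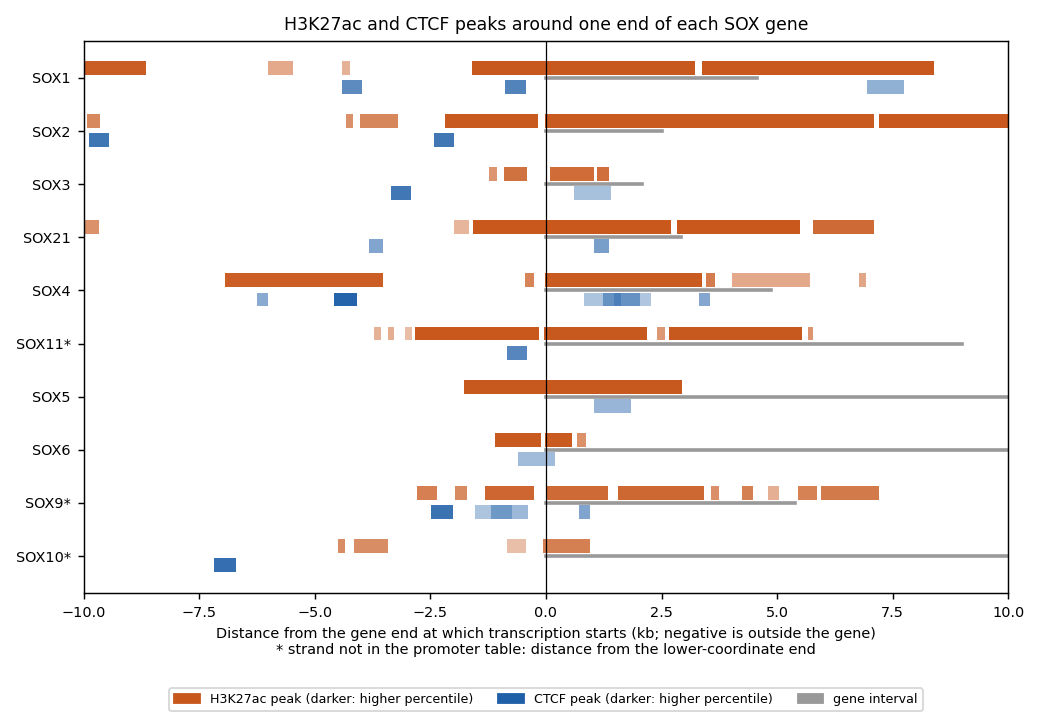
H3K27ac (upper) and CTCF (lower) intervals within 10 kb of one end of each SOX gene, drawn to scale in kb with the gene to the right of 0. Darker bars have higher percentiles in their own list, and asterisks mark genes drawn from the lower-coordinate end because the promoter table gave no strand, SOX10 among them. SOX1, SOX2, SOX3, SOX4, SOX11 and SOX9 have a dark CTCF bar between 0.402 and 4.08 kb outside the gene.

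Group D holds SOX5 and SOX6, coregulators with roles in cortical neuron identity, interneurons and cartilage. SOX5 (gene 6660, chromosome 12, 23529504 to 24562650) held 43 H3K27ac peaks with fold enrichments from 2.05 to 36.1 and a median of 4.99, close to the list median of 4.74. Of these 24 were at or above the list median, and 3 had a q-value above 0.05. The 3 strongest were the peak over the start, from 24559708 to 24564422 (fold enrichment 36.1), a peak 666 kb into the gene from 23895519 to 23896564 (fold enrichment 23.5) and a peak 612 kb into it from 23949814 to 23951533 (fold enrichment 10.5). No flanking peak was listed within 50 kb of SOX5 on either side, whereas 81.6% of protein-coding genes, and 9 of the 10 SOX genes, had at least 1. Genes over 500 kb had fewer flanking H3K27ac peaks, with a median of 1 against 3 over all protein-coding genes. The number of 43 exceeded that of 92.0% of the 314 genes over 500 kb, whose median was 14.

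SOX6 (gene 55553, chromosome 11, 15966449 to 16738477) held 26 H3K27ac peaks with fold enrichments from 2.05 to 28.6 and a median of 4.62, more peaks than 75.5% of genes over 500 kb. The strongest ran from 16737905 to 16738503 at the start. A stronger flanking peak (16738588 to 16739585, fold enrichment 34.4) began 111 bases upstream and lies in the interval of the neighbouring gene C11orf58, so the list does not assign it to either gene. The next were 2 neighbouring peaks 133 and 131 kb into the gene, 2403 and 2216 bp wide, with fold enrichments of 22.4 and 23.2. RefSeq lists 5 starts for SOX6. The promoter window of the start 336 kb into the gene met a peak of fold enrichment 11.8, and that of the start 382 kb into it met 2 peaks of up to 6.86, while the windows of the starts at 262 and 330 kb met no H3K27ac peak. The exons and introns of SOX5 and SOX6 were not analysed here.

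**Figure D4:**
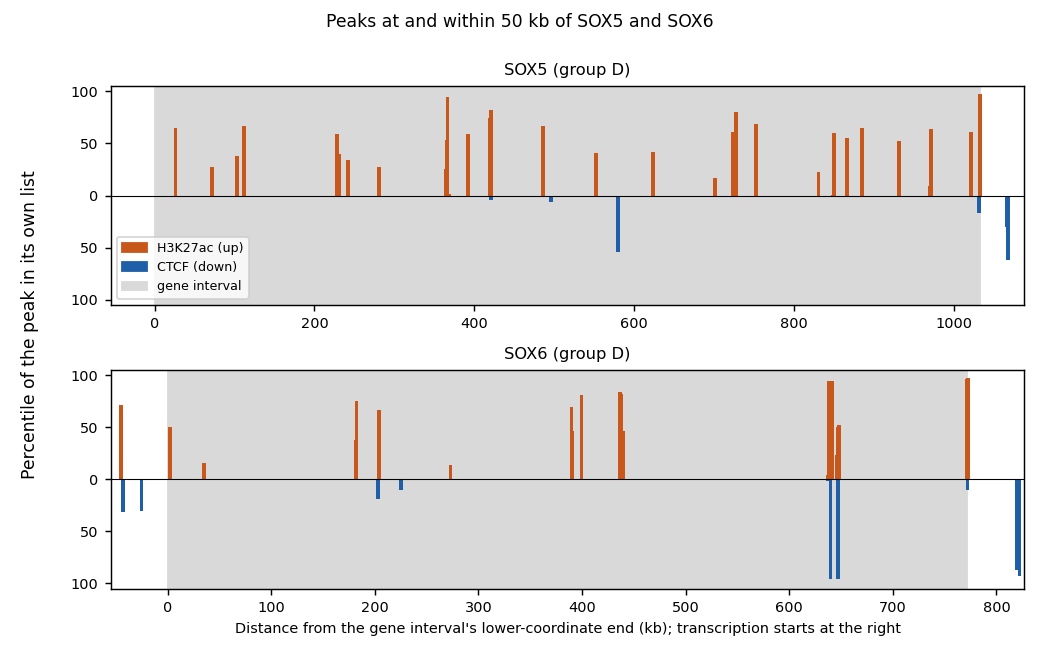
H3K27ac peaks (upward bars) and CTCF peaks (downward bars) along SOX5 and SOX6 and 50 kb on both sides, plotted by distance in kb from the lower-coordinate end, with transcription starting at the right. Bar height is the percentile in the peak's own list, and narrow peaks are drawn at a minimum width. The highest H3K27ac bars stand at the start of both genes, and the 2 CTCF bars at percentile 96.2 in SOX6 stand near the pair of broad H3K27ac peaks 133 and 131 kb into the gene.

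Group E holds SOX9 and SOX10. SOX9 (gene 6662, chromosome 17, 72121020 to 72126416) is found in neural stem cells and astrocytes. It had 5 H3K27ac peaks at the gene, with fold enrichments of 11.0, 12.3, 4.62, 5.77 and 3.36. The 14 flanking peaks ranged from 2.05 to 13.0, the highest being a peak from 72119709 to 72120772 that ended 248 bases outside the gene and lies in SOX9-AS1. A second cluster 24.2 to 26.8 kb beyond the gene held 5 peaks, of which the strongest, from 72151189 to 72152329, had a fold enrichment of 12.3. SOX9 thus had many peaks of medium height: its best value exceeded that of 46.0% of genes up to 15 kb with a peak, while its number of peaks at the gene exceeded that of 98.5% of genes of that length.

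SOX10 (gene 6663, chromosome 22, 37972312 to 37984555) directs oligodendrocyte and neural crest programmes. It had 1 H3K27ac peak at the gene, from 37972249 to 37973255, with a fold enrichment of 5.83, above the highest value of 18.0% of genes up to 15 kb with a peak. The peak lay at the lower-coordinate end of the gene, towards which SOX10 is known to be transcribed. Between that peak and one 31.6 kb beyond the higher-coordinate end no H3K27ac peak was listed. SOX10 lies inside the interval of POLR2F, an RNA polymerase subunit gene. The strongest flanking peaks had fold enrichments of 12.5, 11.6 and 10.6, and all 3 lay in POLR2F.

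CTCF peaks at the gene were mostly weak. A CTCF peak was present at 7 of the 10 genes (all but SOX1, SOX2 and SOX11), against 55.6% of all protein-coding genes. Among the 8 shorter genes the count was 5, against 32.2% of genes up to 15 kb, and SOX5 and SOX6 both had one, against 99.4% of genes over 500 kb. Of the 19 CTCF peaks at the genes, 3 (15.8%) had a signal value at or above the list median of 91.0, and none of these was at a gene of up to 15 kb. The remaining 16 included 13 entries of a width of 800 bp, with a median signal of 24.6. That width made up 68.4% of the peaks at the genes and 27.3% of the flanking peaks, against 33.4% of the whole list, and how it arose is not stated in the sources used here. A CTCF peak at or above the list median was present at 2 of 10 genes, SOX5 and SOX6, against 37.6% of all protein-coding genes. Among the 8 shorter genes it was present at 0, against 18.1% of genes of that length. With so few genes, both counts are near the background, and no such share is given for genes over 500 kb.

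The highest CTCF signal at the gene was 308 at SOX6, where 2 peaks reached that value, from 16606130 to 16606629 and from 16613587 to 16614078. They lay 132 and 125 kb into the gene. The peak at 132 kb overlapped the pair of broad H3K27ac peaks described above. At SOX5 the highest value was 103, from 24109437 to 24109823, 453 kb into the gene and away from H3K27ac. At the other genes with a CTCF peak the highest value was 66.0 at SOX21, 56.2 at SOX9, 52.0 at SOX4, 40.9 at SOX10 and 24.6 at SOX3. SOX4 held 4 entries, of which 3 of 800 bp overlapped one another and 2 had q-values above 0.05. A CTCF peak met a promoter window in 1 of the 7 genes in the table, SOX6, with a signal of 29.1, against 24.6% of protein-coding genes. That peak also overlapped the neighbouring gene C11orf58, so the list does not assign it to either gene.

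Stronger CTCF peaks stood just outside many of the shorter genes. A CTCF peak lay within 5 kb outside the gene interval in 7 of the 10 (SOX1, SOX2, SOX3, SOX21, SOX4, SOX11 and SOX9), against 32.0% of all protein-coding genes. Counting only peaks at or above the list median, the number was 6 (all of these but SOX21), against 20.6%. The distance of 5 kb was chosen after the peaks had been seen, and within 2 kb the number was 4. In the 5 of these genes with a tabulated start, the nearest upstream CTCF summit lay 0.649 kb before the start of SOX1 with a signal of 138, 2.2 kb before SOX2 with 185, 3.14 kb before SOX3 with 184, 3.66 kb before SOX21 with 54.8 and 4.34 kb before SOX4 with 305. At SOX11 and SOX9 peaks with signals of 127 and 207 lay 0.402 and 2.01 kb outside the lower-coordinate end. The SOX4 peak, from 21589176 to 21589666, was the strongest flanking CTCF peak of the 10 genes and lay inside the H3K27ac peak of fold enrichment 22.0. SOX6 had none wholly outside the gene there. A SOX6 peak counted as at the gene, with a signal of 29.1, had its summit 0.203 kb before the start. The nearest flanking peak to SOX5 lay 33.1 kb away with a signal of 52.1, and at SOX10 the nearest lay 6.71 kb away with a signal of 224. No share within 5 kb is given for genes of up to 15 kb alone. Of the marker lists described below, 5 of 8 neural progenitor, 4 of 5 neural crest and Schwann and 4 of 6 astrocyte markers had such a peak. So did 3 of 6 oligodendrocyte, 2 of 8 neuron, 1 of 4 pluripotency and 0 of 6 liver and muscle markers.

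All 10 genes had a flanking CTCF peak within 50 kb, against 86.1% of protein-coding genes, and the 33 flanking peaks had a median signal of 94.1. The strongest was 138 at SOX1, 193 at SOX2, 184 at SOX3, 119 at SOX21, 305 at SOX4, 127 at SOX11, 126 at SOX5, 281 at SOX6, 207 at SOX9 and 260 at SOX10. The SOX6 peak, from 16788330 to 16788840, lies in PLEKHA7, and the SOX10 peak, from 37933855 to 37934360, lies in MICALL1. SOX2 had 3 CTCF peaks on the lower-coordinate side, at 1.98, 9.45 and 11.1 kb, with signals of 185, 193 and 175.

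CTCF peaks near these genes often met H3K27ac peaks. Overlapping peaks of both lists were present at 6 of the 10 genes (SOX3, SOX21, SOX4, SOX5, SOX6 and SOX9), against 30.9% of protein-coding genes. Among the strongest 50% of each list the count was 1 (SOX6), and 13 of the 19 CTCF peaks at the genes were the weak entries of 800 bp. Among the shorter genes the count was 4 of 8, against 18.9%, and among the longer ones 2 of 2, against 71.7%. Of the 19 CTCF peaks at the genes 14 (73.7%) overlapped H3K27ac, and of the 33 flanking ones 20 (60.6%) did, against 28.1% of the whole CTCF list. In the other direction, 16 of 89 H3K27ac peaks at the genes (18.0%) overlapped CTCF, near the 16.2% of the whole H3K27ac list. Of the 74 flanking H3K27ac peaks 21 (28.4%) did. By group, the flanking CTCF peaks that overlapped H3K27ac numbered 10 of 11 in B1, 4 of 4 in C, 5 of 8 in E, 1 of 4 in B2 and 0 of 6 in D. These peaks lie close to one another and to H3K27ac that covers much of the shorter genes, and they are not independent.

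For comparison, 9 other autosomal SOX genes were examined. H3K27ac was present at 4 of the 9, against 69.0% of all protein-coding genes and 49.0% of those up to 15 kb. All of the 9 but SOX13 and SOX30 are of that length. The highest fold enrichment was 31.0 at SOX12, 13.9 at SOX13, 7.95 at SOX30 and 3.78 at SOX8. SOX7, SOX14, SOX15, SOX17 and SOX18 had no H3K27ac peak at the gene, and SOX7, SOX14 and SOX17 had none within 50 kb either. None of the 9 had a peak of 2 kb or more, a width found at 12.0% of all protein-coding genes, so that a count of 0 among 9 genes is near the background. CTCF peaks within 5 kb outside the gene were present at 4 of the 9, against 32.0% of all protein-coding genes.

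**Figure D5:**
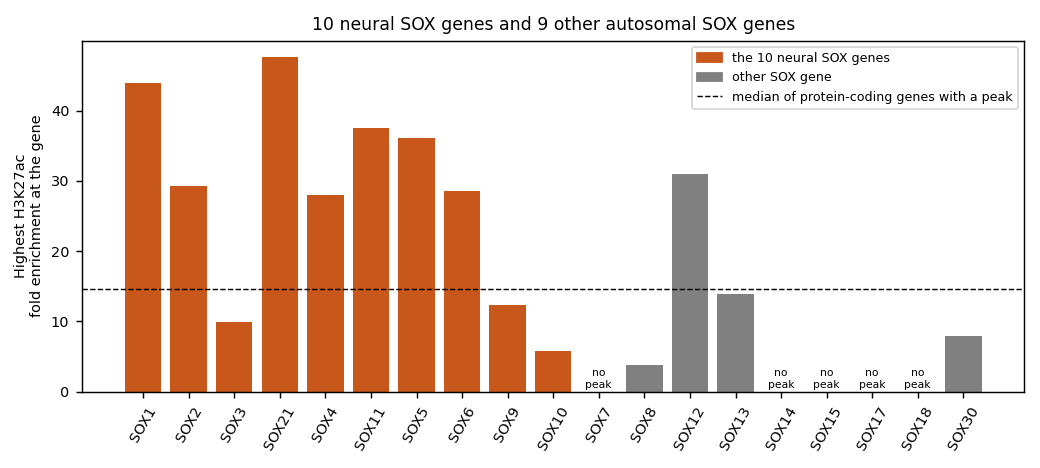
Highest H3K27ac fold enrichment at each of the 10 neural SOX genes and at 9 other autosomal SOX genes, as bars from 0, with the median of the 13773 protein-coding genes that have a peak (14.6) as a dashed line. SOX12 and 7 of the 10 genes stand above the line, and 5 of the other genes have no peak.

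Among 15 partners and targets of SOX proteins in the neural lineage, 11 had H3K27ac at the gene, a share near the 69.0% of all protein-coding genes, and their median highest fold enrichment was 22.6, beside 14.6 over all genes with a peak. The highest was 45.2 at POU3F3, a POU partner of neural SOX proteins, and none was listed at POU5F1, OLIG2, NKX2-2 and ERBB3. The genes without a peak include OLIG2 and NKX2-2, factors of the oligodendrocyte lineage, and ERBB3, a receptor of the Schwann cell lineage that SOX10 activates. Marker lists were used to check the labelled cell type, and their counts are to be read against the same 69.0% and 14.6. H3K27ac lay at 8 of 8 neuron markers (median highest fold enrichment 19.6) and at 8 of 8 neural progenitor markers (25.3). It lay at 5 of 6 astrocyte markers (14.3, none at AQP4), at 3 of 6 oligodendrocyte markers (4.49, none at OLIG1, OLIG2 and MOG), at 3 of 5 neural crest and Schwann markers (5.77, none at FOXD3 and ERBB3) and at 2 of 4 pluripotency markers (6.23, none at POU5F1 and NANOG). Among 6 liver and muscle markers 3 had a peak, with a median of 4.62. These lists share genes with the list of partners. H3K27ac was thus listed at every neuron marker and every progenitor marker of these lists, but lists this short say little about the cell type. Of the neuron markers, RBFOX3 (5.96), SYN1 (5.54) and NEFL (8.38) had a highest value below 14.6. Of the progenitor markers, PAX6 (9.81), HES1 (9.1) and HES5 (10.1) did. The other genes of both lists were above 14.6. A peak was also listed at some markers of each other type. Whether progenitors were present in the culture, or had a part in the values at SOX1, SOX2 and SOX21, was not tested.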

How the data were processed

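ChIP-seq was performed for CTCF and H3K27ac in 2 libraries each, with 2 inputs. The deposited data were 1 peak list per antibody for both replicates together, per the labels. The submitters' processing notes name hg38 and cutadapt 1.16; the aligner, peak caller and settings are not given in the sources used here. The authors' CTCF column is a peak signal on an unstated scale. Their H3K27ac column was read as a fold enrichment (a ratio) from its values, and both deposited lists carry −log10 q values and a score, the latter not used in results. These scales were never compared. There were 0 further columns of per-sample values.

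Gene intervals and promoters came from RefSeq on GRCh38.p14, the same build as hg38. Peaks were assigned with Python 3.11.15, pandas 2.3.3 and numpy 2.4.6 by at least 1 bp of overlap, and positions are 1-based. The interval code was tested on simulated peaks. Percentiles give the share of the list, or of genes, with a lower value. Motifs were searched in the 250 bases before each start, and not in the 50 bases after it. Named peaks were the strongest at each gene and the strongest and nearest flanking peaks, with others added after their values were seen. For genes with over 6 peaks the 3 strongest were named. The genes and gene lists were chosen with earlier results of these data known. Of the gene lists, 1 gene is not reported here. Alternatives covered the definition of overlap, the q-value, the signal, the window and the CTCF entries of 800 bp. The 2 input libraries, single replicates and signal tracks were not analysed here.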

Additional observations from a re-analysis of the deposited data

How the results depend on the processing

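No paired analysis was possible because each list covers both replicates together. Leaving out each replicate was not run for the same reason, and depth is unknown. Of 47 alternatives for the counts, 35 stayed within 1.5 times the reported number and 12 moved; the cause of a move was not tested beyond what the setting itself removes or adds. Among the strongest 50% of peaks, H3K27ac peaks at the genes numbered 51 (89 in the full list) and flanking ones 42 (74), CTCF peaks at the genes numbered 3 (19) and flanking ones 18 (33), and 2 genes kept a CTCF peak (7) and 1 kept an overlap of both lists (6). With q under 0.01 the CTCF peaks at the genes numbered 12, and without the entries of 800 bp 6. Extending the genes by 2 kb gave 10 genes with a CTCF peak. Windows of 20 kb held 41 flanking H3K27ac and 18 flanking CTCF peaks, and windows of 100 kb held 130 H3K27ac peaks. Peaks of at least 1 kb were present at 9 genes (7 at 2 kb). All 10 genes had an H3K27ac peak in the 4 alternatives run. The settings of 5 kb for CTCF near a gene and 2 kb for broad H3K27ac were chosen after seeing the data, as were their alternatives: CTCF lay within 2 kb of 4 genes and within 10 kb of 8, and peaks of 3 kb lay at 5. Of the highest values per gene, 28 alternatives left the value as it was and 6 changed it. With summits required inside the gene, SOX1 was 36.0 and SOX21 46.5. With genes extended by 2 kb, SOX11 was 49.1, SOX2 35.4, SOX6 34.4 and SOX9 13.0.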
